A study of Mus musculus with 27 samples.

Results

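The hepatocyte Acly knockout was compared with wild type in mouse livers after sham surgery, which addresses the genotype difference without ischemia. The members are the 8 RNA-seq libraries whose titles place them in these groups, 4 knockout and 4 wild type, of 27 samples in the series, of which 16 are RNA libraries. The KO sham group carried the Alb-cre transgene and a floxed Acly gene (Alb-cre:Aclyf/f), and the WT sham group is labelled wild type with no further allele. All 8 livers had sham surgery, and liver tissue was taken 24 hours later from what the submitters call the broader zone. The treatment field of these livers reads normoxia. The sources used here do not give strain, age, sex or whether the wild-type mice carried floxed alleles or Cre. The Alb promoter is active in hepatocytes, so the deletion was aimed at these cells. Bulk liver RNA also holds RNA of other liver cells, and which of them kept Acly was not tested. Nothing in the labels ties each library to its own animal, and the p-values therefore reflect library spread that may be technical.

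ATP citrate lyase, encoded by Acly, splits citrate in the cytosol and nucleus into acetyl-CoA and oxaloacetate. Its acetyl-CoA feeds fatty acid and cholesterol synthesis and the acetylation of histones. In liver the enzyme is known as part of the lipogenic programme that feeding and insulin turn on. Livers after ischemia-reperfusion (IR) surgery served as a further comparison of the same genotypes, with 4 KO IR and 4 WT IR libraries. These livers were also taken at 24 hours, with hypoxia-reperfusion in the treatment field. The IR libraries belong to neither sham group, but the sham test was not independent of them. All RNA libraries were fitted in the same model, so the IR libraries entered its filter, scaling and estimate of spread.

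The deposited files list 111462 Ensembl transcripts by identifier and do not pair them with genes, and no such pairing was used here. All results are therefore per transcript, gene sums and gene lists were not tested, and the transcripts of Acly were not identified. Whether a transcript named below is one of them was not looked up. The level of Acly RNA was thus not used to check the genotype labels. Markers of liver cell types were not analysed here for the same reason. In bulk tissue, fewer cells of a type and less RNA per cell cannot be told apart, and in estimates per transcript a change of the whole gene and a shift of reads between its isoforms cannot be told apart either.

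The KO sham libraries held 43.55 to 43.79 M estimated counts and the WT sham libraries 42.8 to 43.77 M. A transcript was detected at 1 or more on the TPM scale, which counts transcripts after correction for length and depth, for 16080 ± 704 transcripts in KO sham livers and 16320 ± 339 in WT sham livers (SD, n = 4 each, two-sided exact permutation p = 0.657). Of all TPM, the top 100 transcripts made up 71.04 ± 1.88% in knockout and 71.68 ± 1.76% in wild-type livers after sham (SD, n = 4 each, exact permutation p = 0.657). Transcripts shorter than 500 bases held 13.91 ± 0.171% and 14.31 ± 0.696% of TPM in KO sham and WT sham livers (SD, n = 4 each, exact permutation p = 0.286).

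By deviation from the rest of their group, the KO sham libraries were more alike than the WT sham libraries, though WT sham 2 and WT sham 3 resembled each other. Among transcripts of at least 10 CPM (counts scaled to library size) on average over the sham libraries, the mean absolute log2 deviation of a library from the mean of the other 3 of its group was 0.206, 0.199, 0.214 and 0.206 in KO sham 1 to 4. In WT sham 1 to 4 it was 0.348, 0.245, 0.268 and 0.342. All 4 wild-type libraries lay above all 4 knockout libraries, which gives the smallest p the exact permutation test allows (p = 0.0286, 70 arrangements). It did not pass adjustment over the 7 library measures tested (Benjamini-Hochberg adjusted exact permutation p = 0.2). The 4 values of a group are not independent, since each is measured against the other 3 libraries of its group. The permutation moved these values without measuring them anew, so its p is not exact for this measure. The corresponding values after IR were 0.194 to 0.241 in KO IR and 0.17 to 0.208 in WT IR libraries, so the WT sham libraries were the most spread of the 4 groups.

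**Figure D1:**
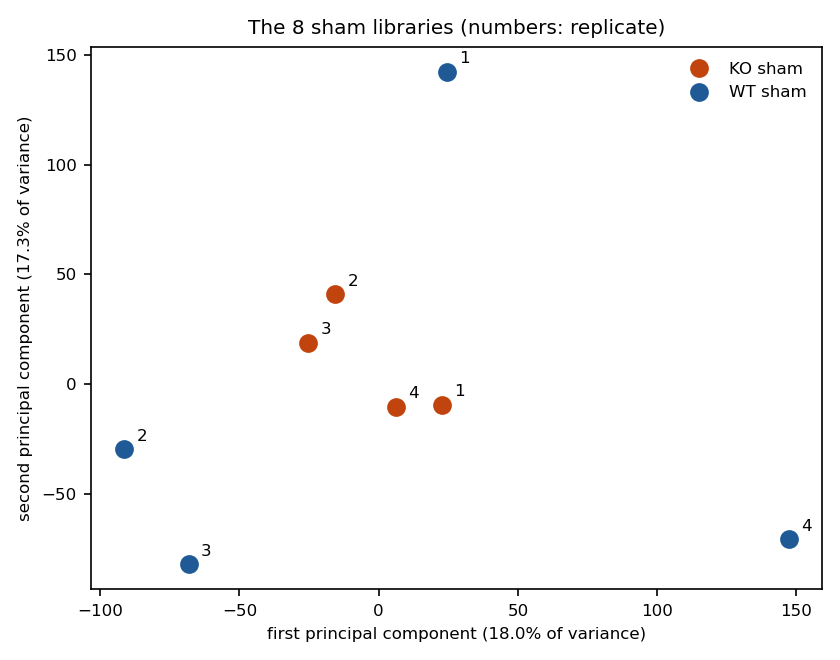
Scores of the 8 sham libraries on the first 2 principal components of log2 CPM, with knockout libraries in orange and wild-type libraries in blue, each marked with its replicate number. The KO sham libraries lie near the centre, between -25.3 and 22.7 on the first component, while WT sham 4 at 147.3 and WT sham 1 at 142.4 on the second component lie far out.

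The genotypes overlapped on the first 2 principal components, the components that were tested. The first component held 18% of the variance, with KO sham libraries at 22.7, -15.7, -25.3 and 6.22 and WT sham libraries at 24.4, -91.3, -68.2 and 147.3 (exact permutation p = 0.943, n = 4 each). The second held 17.3%, with KO sham libraries from -10.4 to 41 and WT sham libraries from -82.2 to 142.4 (exact permutation p = 0.771, n = 4 each). Both components ran mainly between wild-type libraries. Pearson correlations of log2 CPM across transcripts, which are not independent replicates, had a median of 0.908 over the 6 pairs of KO sham libraries, 0.899 over the 16 pairs of a KO sham with a WT sham library, and 0.883 over the 6 pairs of WT sham libraries. A wild-type library was thus on median closer to the knockout libraries than to another wild-type library. The pair of WT sham 2 and WT sham 3 stood at 0.908, within the 0.906 to 0.912 of the KO sham pairs. The other WT sham pairs, each with WT sham 1 or WT sham 4, stood at 0.881 to 0.889.

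Few transcripts passed the test between knockout and wild-type livers after sham, and each moved in 1 direction over all 4 libraries. Of 36041 transcripts tested with edgeR's quasi-likelihood test, 3 passed an adjusted p of 0.05, which is 0.00832% of those tested. In this comparison 1 was higher in KO sham livers (0.00277%) and 2 were lower (0.00555%). Before adjustment 1327 transcripts (3.68%) had a p under 0.05, with 673 higher and 654 lower in KO sham livers. DESeq2 called 50 transcripts (0.139%), 23 higher and 27 lower, among them the 3 of edgeR. Of these 50, 36 had a count of 0 after rounding in all 4 libraries of 1 sham group. DESeq2 also called 4 of the 50 between KO IR and WT IR livers in the same direction and 3 in the opposite direction, where it called 9.05% of all transcripts it tested.

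**Figure D2:**
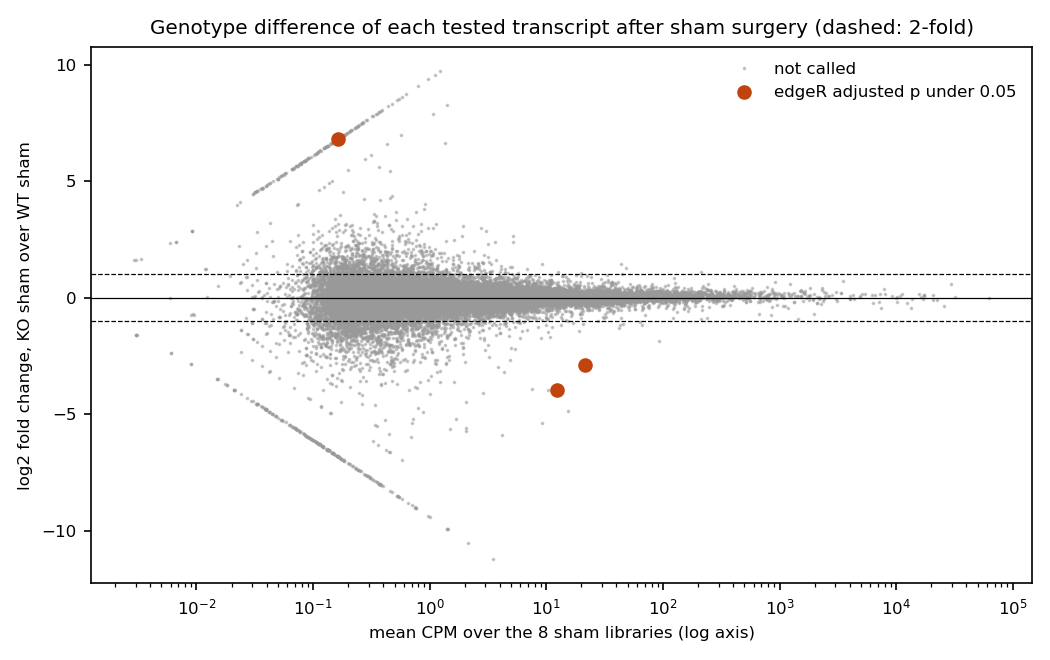
Log2 fold change of KO sham over WT sham livers against mean CPM over the 8 sham libraries (log axis) for the 36041 transcripts tested, with the 3 called transcripts in orange and 2-fold change as dashed lines. The called transcripts lie at log2 fold changes of -2.87 and -3.95 (lower) and at a fitted 6.82 (higher, against 0 counts in WT sham livers). The straight diagonal edges hold transcripts with 0 counts after rounding in 1 group.

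Both transcripts that fell were moderately abundant in wild-type liver, and each was low in every knockout library. ENSMUST00000165111.7, which is 4162 bases long, stood at 1.49, 1.57, 1.14 and 0.543 TPM in KO sham 1 to 4, against 14.4, 8.24, 7.58 and 4.21 TPM in WT sham 1 to 4. The groups did not overlap, and WT sham 1 was the highest. The log2 fold change was -2.87 (SE 0.37, 95% interval -3.65 to -2.09, adjusted p = 0.0326 by edgeR, and 3.82e-12 by DESeq2 to 0.473 with the sham libraries alone over the 26 alternatives).

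ENSMUST00000107389.7, of 4426 bases, stood at 0.208, 0.303, 0.56 and 0.2 TPM in KO sham livers and at 9.51, 3.96, 2.04 and 4.27 TPM in WT sham livers. The groups did not overlap either, and WT sham 1 was again the highest and WT sham 3 the lowest of its group. The log2 fold change was -3.95 (SE 0.53, 95% interval -5.08 to -2.83, adjusted p = 0.0326 by edgeR, up to 1 over the 26 alternatives).

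The same deficit was measured in the livers after IR, which share no library with the sham livers but were fitted in the same model. ENSMUST00000165111.7 stood at 0.753, 1.36, 1.5 and 1.18 TPM in KO IR livers, against 11, 8.98, 10.6 and 9.03 TPM in WT IR livers (log2 fold change -3.31, SE 0.37, adjusted p = 0.000667 by edgeR). ENSMUST00000107389.7 stood at 0.53, 1.28, 0.578 and 0.213 TPM in KO IR livers, against 6.23, 5.04, 5.95 and 4.14 TPM in WT IR livers (log2 fold change -3.35, SE 0.51, adjusted p = 0.00287 by edgeR). The WT IR libraries lay much closer together than the WT sham libraries did. The genotype difference after IR minus that after sham was -0.44 (SE 0.49) and 0.6 (SE 0.67) on the log2 scale, with an adjusted p of 0.855 for both by edgeR. These 2 calls after IR held under all 24 alternatives run with IR libraries. The call after sham was less firm and depended on single libraries. For ENSMUST00000165111.7 it held on leaving out WT sham 4, KO IR 1, KO IR 3 or KO IR 4 and was lost without any 1 of the other 12 RNA libraries (adjusted p of 0.0525 to 0.167 by edgeR). For ENSMUST00000107389.7 it held on leaving out WT sham 3, KO IR 2 or KO IR 4 and was lost without any 1 of the other 13 (adjusted p of 0.0538 to 0.171 by edgeR). The log2 fold changes themselves ranged from -3.11 to -2.5 and from -4.33 to -3.42 over these omissions.

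The transcript that rose was rare. ENSMUST00000190336.6, of 1680 bases, had 9.34, 13.6, 12.9 and 17.3 estimated counts in KO sham 1 to 4 (0.135, 0.203, 0.197 and 0.241 TPM) and 0 in each WT sham library. All knockout libraries were above all wild-type libraries, and the group sums of 53.1 and 0 counts make it at least 17.6-fold higher in KO sham livers, with 3 counts for the whole group as the floor and library totals as the scale. The bound covers counting error only (adjusted p = 0.0326 by edgeR). After IR it stood at 0.15, 0.143, 0.346 and 0.0802 TPM in KO IR livers and 0.168, 0.171, 0.128 and 0.0994 TPM in WT IR livers, where the groups overlapped (log2 fold change 0.1, SE 0.51, adjusted p = 0.967 by edgeR). It was thus present in every library outside the WT sham group. The difference between surgeries passed by edgeR (fitted log2 difference -6.71, adjusted p = 0.016), and it did not pass with the replicate number as a block (adjusted p = 0.0733) or by limma-voom (adjusted p = 0.068). The call after sham held only on leaving out KO IR 3 or KO IR 4 and was lost without any 1 of the other 14 RNA libraries (adjusted p of 0.0618 to 0.167 by edgeR). With the sham libraries alone this transcript did not pass the filter on low counts, so it was not tested there.

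**Figure D3:**
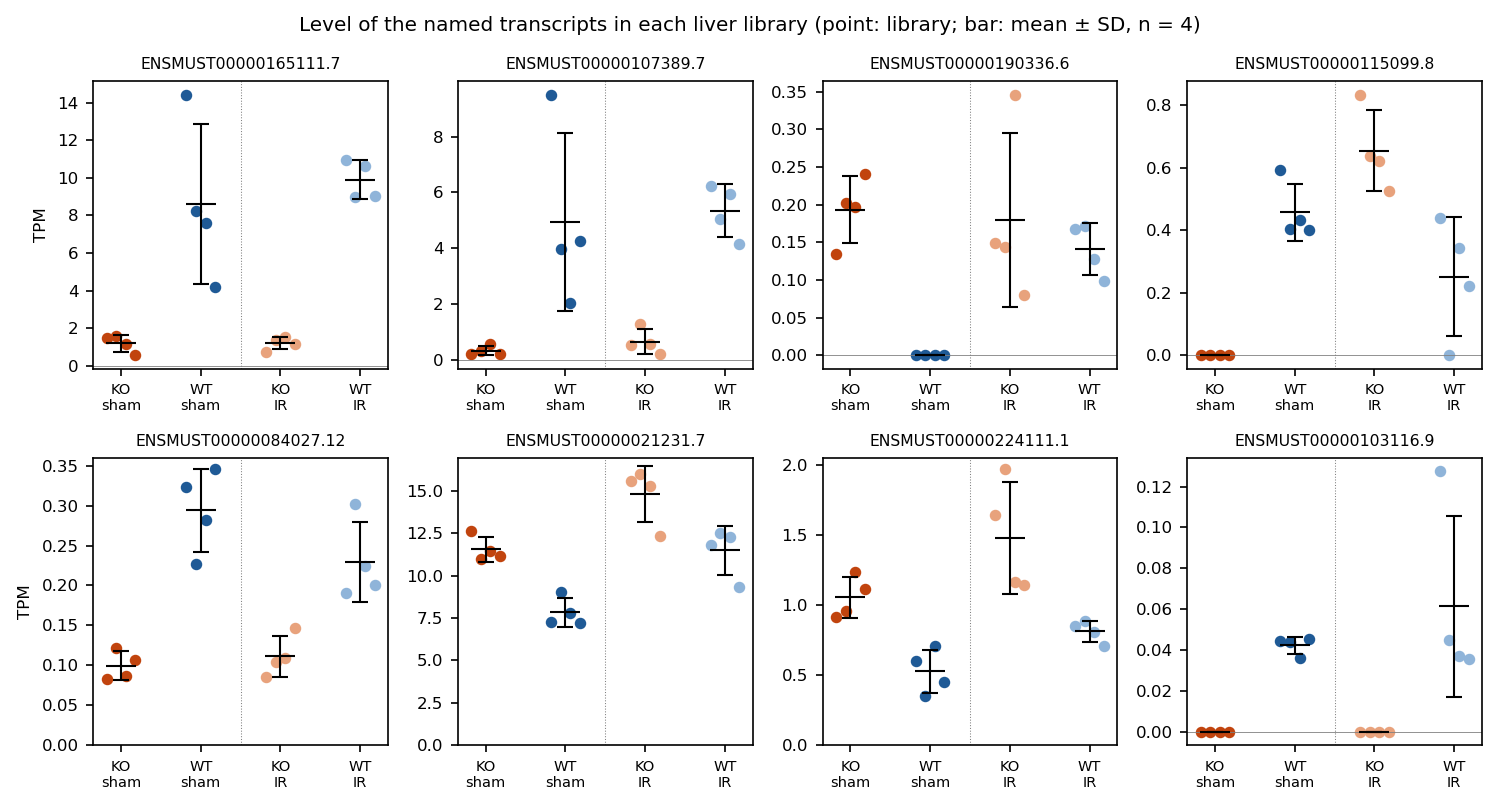
TPM of the 8 named transcripts in each of the 16 liver libraries, in 4 groups with the mean and SD as black bars (n = 4), each panel with its own axis. In the first 2 panels every KO library after either surgery lies below every WT library, whereas ENSMUST00000190336.6 and ENSMUST00000115099.8 differ between genotypes after sham and not in the same way after IR.

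The transcripts next in order of p did not pass the adjusted threshold, although in each the sham groups did not overlap. Groups that did not overlap in CPM were found for 809 of the 36041 transcripts (2.24%). The pair with the smallest p in each direction and a mean of at least 1 CPM is described here, and DESeq2 called all 4 of them (adjusted p of 7.85e-08 to 0.00439). TPM values carry no TMM scaling, whose factors were 0.864 to 0.985 in KO sham and 0.934 to 0.991 in WT sham libraries but 1.075 to 1.2 in KO IR and 0.922 to 1.017 in WT IR libraries, so log2 fold changes of KO over WT after IR are lower than TPM alone would give. ENSMUST00000021231.7, of 4999 bases, stood at 12.6, 11, 11.5 and 11.2 TPM in KO sham livers, against 7.24, 9.05, 7.81 and 7.23 TPM in WT sham livers. The log2 fold change was 0.59 with a narrow error (SE 0.1, 95% interval 0.37 to 0.81, adjusted p = 0.248 by edgeR). After IR it was 0.09 (SE 0.1, adjusted p = 0.757 by edgeR), with 12.3 to 16 TPM in KO IR and 9.36 to 12.5 TPM in WT IR livers.

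ENSMUST00000224111.1 stood at 0.911, 0.958, 1.23 and 1.11 TPM in KO sham livers and 0.597, 0.353, 0.705 and 0.452 TPM in WT sham livers (log2 fold change 1.03, SE 0.21, adjusted p = 0.809 by edgeR). After IR its groups again did not overlap in TPM, with 1.14 to 1.97 TPM in KO IR and 0.708 to 0.883 TPM in WT IR livers, and the test did not pass (log2 fold change 0.57, adjusted p = 0.164 by edgeR). Lower in the knockout was ENSMUST00000084027.12, of 5025 bases. It stood at 0.0824, 0.122, 0.0869 and 0.107 TPM in KO sham livers and 0.323, 0.227, 0.282 and 0.346 TPM in WT sham livers (log2 fold change -1.55, SE 0.27, adjusted p = 0.248 by edgeR). This transcript did pass after IR, with 0.0847 to 0.147 TPM in KO IR and 0.19 to 0.302 TPM in WT IR livers (log2 fold change -1.3, adjusted p = 0.0141 by edgeR).

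ENSMUST00000115099.8, of 4149 bases, was nearly absent from knockout sham livers. Its estimated counts were 0, 0.281, 0.251 and 0.105 in KO sham 1 to 4, against 108, 74, 79.7 and 71.3 in WT sham 1 to 4. Each KO sham library rounds to 0, and against the floor of 3 counts for the whole group the transcript was at least 112-fold lower in KO sham livers, a bound on counting error only, without passing the test (adjusted p = 0.248 by edgeR). Without WT IR 2, which stood at 0.204 counts while the other WT IR libraries held 41.7 to 79, the sham difference passed (adjusted p = 2.22e-05 by edgeR, in a range of 7.85e-08 to 1 over the 25 alternatives). In KO IR livers it was present in every library, at 91.6 to 123 counts. The genotype difference after IR minus that after sham was a fitted 10.5 on the log2 scale (adjusted p = 0.0331 by edgeR).

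Transcripts that were all or none between the sham groups were few. With at least 5 counts in every library of 1 group and 0 after rounding in every library of the other, 9 were present in KO sham and absent from WT sham livers and 6, ENSMUST00000115099.8 among them, showed the reverse. All 9 were detected in both KO IR and WT IR livers, as were 5 of the 6. Between KO IR and WT IR livers the same rule found 20 and 13. Of the 9 present in KO sham livers 0 had the pattern in the IR livers, and of the 6 present in WT sham livers 1 had it. That transcript, ENSMUST00000103116.9, of 6370 bases, is named although it lies outside the rule for naming and was chosen after its values were seen. It had 0 counts in every KO sham library, against 12.6, 12.6, 10.3 and 12.6 in WT sham 1 to 4, at least 16.1-fold lower in KO sham livers (adjusted p = 0.264 by edgeR). After IR it was at 0 in KO IR livers to within 0.01 of a count, against 35.7, 12.6, 10.5 and 10.5 counts in WT IR 1 to 4 (adjusted p = 0.00513 by edgeR).

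The size of change that the sham livers allow can be read from the 95% interval of each transcript's log2 fold change, which comes from the same fit and is not adjusted over transcripts. Intervals were counted for transcripts detected in both sham groups. Among the 6561 transcripts of at least 10 CPM, 6136 (93.5%) had an interval that lay wholly within a 2-fold change and 5073 (77.3%) one within 1.5-fold. Of the 13254 at 1 to 10 CPM, 68.6% lay within 2-fold and 32.1% within 1.5-fold. Below 1 CPM, with 15827 transcripts, the shares were 16.2% and 0.55%, so the interval of most of these rare transcripts reached beyond 2-fold. The median SE of a log2 fold change was 0.132 at 10 CPM or more, 0.261 at 1 to 10 CPM and 0.594 below 1 CPM.

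**Figure D4:**
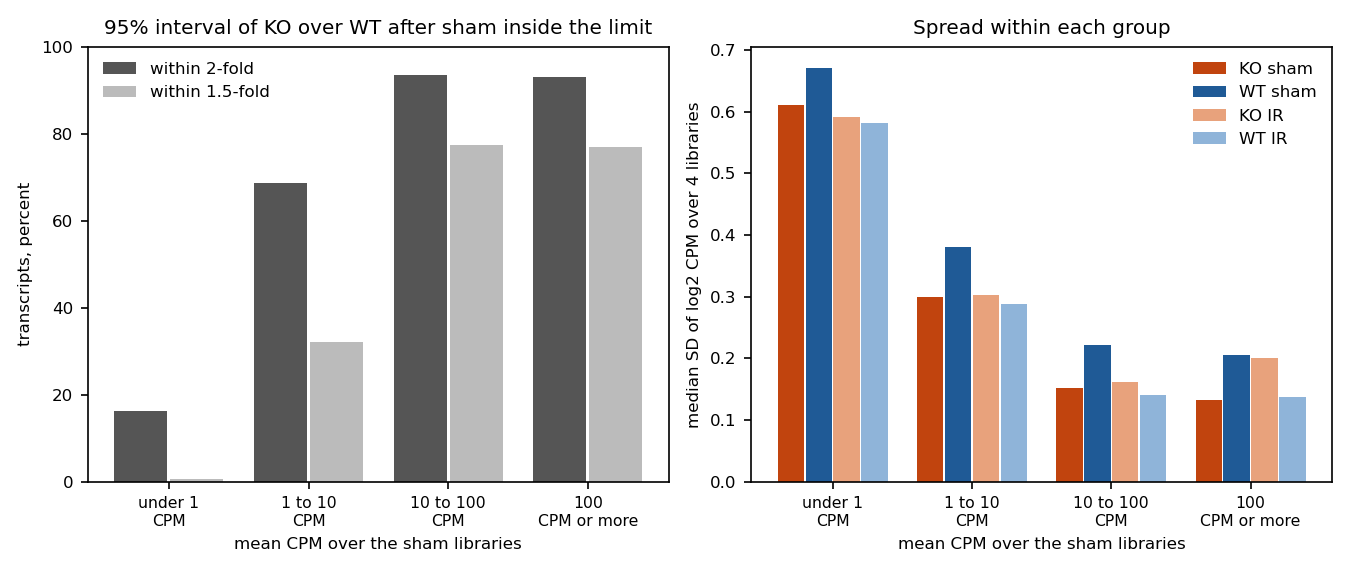
Left, percent of transcripts in each class of mean sham CPM whose 95% interval of KO over WT after sham lies within 2-fold or 1.5-fold. Right, median over transcripts of the SD of log2 CPM over the 4 libraries of each group, where WT sham is the highest bar in every class (0.221 at 10 to 100 CPM, against 0.152 in KO sham livers).

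Large differences among abundant transcripts were rare. A fitted change of more than 2-fold was seen for 23 of the 6561 transcripts at 10 CPM or more (0.351%), the called pair included. At 1 to 10 CPM it was seen for 359 (2.71%) and below 1 CPM for 2546 (15.7%). At 100 CPM or more 1 of 909 transcripts exceeded 2-fold. The top 100 transcripts by TPM of either genotype after sham had 96 members in common. The log2 fold changes of these 96 ran from -0.93 to 0.71 with a median of 0.07. The median was also 0.07 over the 909 transcripts at 100 CPM or more, and it was -0.01 over all tested transcripts. Of the 96, 86 had an interval within 2-fold, 3 had an unadjusted p under 0.05 and 0 passed adjustment by edgeR (lowest adjusted p = 1). Of the 909, 93.1% had an interval within 2-fold and 5.5% had an unadjusted p under 0.05. In the IR livers 25 of the same 96 were called between the genotypes, against 216 of the 909 transcripts at 100 CPM or more and 4% of all tested, so the count is near that of equally abundant transcripts.

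Among abundant transcripts small differences were more often higher in the knockout, although their number was near that over all transcripts. At 10 CPM or more, 4.42% had an unadjusted p under 0.05 and 2.56% had groups that did not overlap, against 3.68% and 2.24% of all tested. In this class 222 transcripts with an unadjusted p under 0.05 were higher and 68 were lower in KO sham livers, and 151 higher and 17 lower had groups that did not overlap, against 461 and 348 over all tested. The median log2 fold change in this class was 0.038. The lean was smaller with a stricter filter and the scaling that goes with it. With only transcripts of at least 10 CPM in 4 libraries kept, the median was 0.005, and 140 were higher and 110 lower. Without the filter on low counts 222 were higher and 56 lower, and with RLE size factors 206 were higher and 69 lower. The lean thus varied with the processing. It also moved with single libraries. Without KO sham 3, 143 were higher and 53 lower. Without WT sham 1, WT sham 2 or WT sham 3 the counts were 327 and 110, 337 and 97, or 160 and 101. Below 1 CPM the lean was the other way, with 233 higher and 345 lower.

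The median fold change differed little between classes of transcript length. Over 5 classes of transcript length of near-equal size, from 81 to 834 bases in the shortest to 3992 bases and more in the longest, the median log2 fold change of KO sham over WT sham lay between -0.015 and 0.004. Unadjusted p under 0.05 was reached by 131 transcripts higher and 106 lower in KO sham livers in the shortest class, by 168 and 125 in the next, by 141 and 139, by 109 and 130, and by 124 higher and 154 lower in the longest.

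The transcripts called between the genotypes after IR were on median close to wild-type levels in knockout livers after sham. Between KO IR and WT IR livers, 799 transcripts were higher in KO (2.22%) and 643 lower (1.78%) by edgeR, 1442 in all (4%), with median log2 fold changes of 1.05 and -0.87. In sham livers the same 799 had a median of 0.04 and the same 643 a median of 0.06, with -0.01 over all tested transcripts. Values chosen for their size after IR overstate that size. The sham fold changes were not used in the choice, but the sham libraries entered the filter, scaling and estimate of spread behind the IR p-values. The choice was thus not fully independent of the sham libraries.

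Given as the median log2 difference from the mean of the WT sham libraries, the 799 transcripts stood at 0.0686, 0.056, 0.055 and 0.0476 in KO sham 1 to 4 and at 0.0681, 0.0462, -0.0407 and -0.0838 in WT sham 1 to 4. They stood at 0.804 to 1.28 in KO IR and -0.0104 to 0.167 in WT IR libraries. The 643 stood at 0.0104, 0.0832, 0.153 and 0.0281 in KO sham livers and -0.0127, 0.0802, -0.0324 and -0.0193 in WT sham livers, and at -1.19 to -0.698 in KO IR and -0.0561 to 0.0284 in WT IR libraries. The choice of these transcripts set the gap between KO IR and WT IR in advance. In both sets the sham groups and WT IR overlapped and the KO IR libraries stood apart. KO IR 1 to 3 held 37.79 to 38.22 M estimated counts, fewer than the other 13 RNA libraries, and the part of depth in this was not tested.

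**Figure D5:**
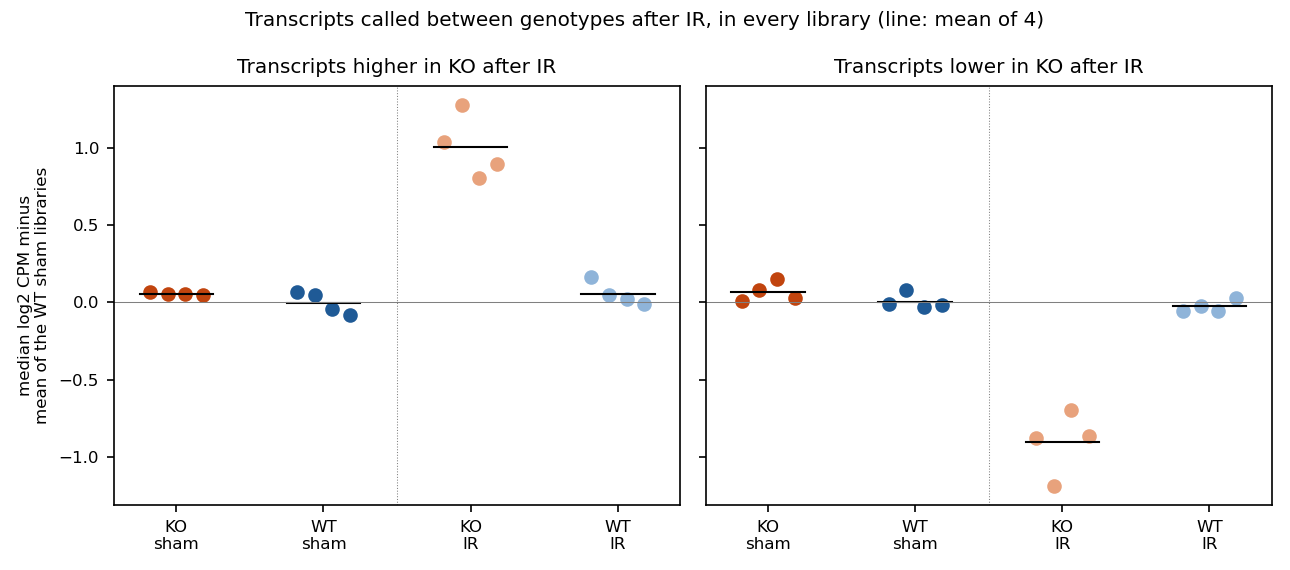
Median log2 CPM of the transcripts called higher (left, 799) or lower (right, 643) in KO after IR, as the difference from the mean of the WT sham libraries, in each library, with the group mean as a line. KO sham libraries lie between 0.01 and 0.153, near those of WT sham, while KO IR libraries lie at 0.804 or above on the left and at -0.698 or below on the right.

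Of the 799, 489 (61.2%) were higher in KO sham livers and 27 reached an unadjusted p under 0.05 in that direction, against 6 in the other. Of the 643, 229 (35.6%) were lower in KO sham livers, 17 reached an unadjusted p under 0.05 in that direction and 23 in the other, and the called 2 were ENSMUST00000165111.7 and ENSMUST00000107389.7. Of all 36041 tested, 673 were higher and 654 lower in KO sham livers at an unadjusted p under 0.05. At 10 CPM or more, where transcripts leaned higher in KO sham livers, lay 237 of the 799 and 407 of the 643. In both sets the majority thus did not lean lower, whichever way they moved after IR. The test of the difference between surgeries passed for 119 transcripts (0.33%), of which 50 are among the 799 and 65 among the 643. For the rest of both sets the difference between surgeries did not pass by edgeR. Read the other way, the 673 transcripts higher in KO sham livers at an unadjusted p under 0.05 had a median of 0.05 after IR and 56.6% were higher there, and of the 654 lower ones 45.6% were higher there, against 49.5% of all tested transcripts. Across transcripts of at least 10 CPM the genotype differences after sham and after IR, from libraries that do not overlap, were nearly unrelated (Pearson r = 0.041, Spearman rho = -0.036), as a description over 6561 transcripts that share library depth and scaling.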

How the data were processed

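Per the file headers, each RNA file holds kallisto's length, estimated count and TPM per Ensembl transcript, as the authors deposited them. Kallisto and Trimmomatic are named without versions, and mm10 as the build, per the submitters' processing notes. Estimated counts were rounded and filtered with edgeR's filterByExpr by group, leaving 36041 transcripts. The deposited TPM values describe levels only. A quasi-likelihood model (edgeR 4.0.16, R 4.3.3, TMM scaling, robust) covered all 16 RNA libraries by group, leaving 12 residual degrees of freedom, and Benjamini-Hochberg adjustment ran over all transcripts. Alternatives used DESeq2 1.42.0, limma 3.58.1 (voom), other scaling, filters and libraries. The fit was tested on simulated data.

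Named transcripts are those past the threshold and the 2 of next smallest p in each direction with a mean of at least 1 CPM. Comparisons and members were chosen with earlier results of these data known. The planned gene sums and gene lists were not run, since no table pairs transcripts with genes. Pairs of replicates differed by more than counting noise (chi-square per degree of freedom 33.01 to 106.3), so none was taken for a library deposited 2 times. This does not show separate animals. Library values were tested with two-sided exact permutation over 70 arrangements. CUT&RUN peak lists were not used here.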

Additional observations from a re-analysis of the deposited data

Results flagged for a closer look

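The genotype difference after IR minus that after sham passed the interaction test across all transcripts for ENSMUST00000190336.6 (fitted log2 difference of -6.71, edgeR adjusted p = 0.016) and for ENSMUST00000115099.8 (10.52, edgeR adjusted p = 0.0331). The first did not pass with the replicate number as a block (adjusted p = 0.0733) or by limma-voom (adjusted p = 0.068). The first was at 0 in the 4 WT sham libraries and present in the other 12, and the second was near 0 in the 4 KO sham libraries and in WT IR 2. Of 62 groups of 4 values examined, 3 held a library set apart relative to the range of its group, and chance gives about 5% of groups. The number flagged is thus near that of chance. ENSMUST00000103116.9 stood at 0.036 TPM in WT sham 3, against 0.044 to 0.0452 TPM in the other WT sham libraries. In estimated counts this was 10.3 against 12.6, a small gap. It stood at 0.128 TPM in WT IR 1, against 0.0359 to 0.0451 TPM in the other WT IR libraries. For the transcripts of at least 10 CPM that were higher in KO after IR, the median was 0.695 in KO IR 2, against 0.583 to 0.59 in the other KO IR libraries.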

How the results depend on the processing

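The count of 3 called transcripts after sham was small and unstable. It was 3 with RLE size factors and 2 with at least 10 CPM in 4 libraries. It was 1 with the 8 sham libraries only (0 of the main 3, of which the filter removed ENSMUST00000190336.6). It was 0 without the filter on low counts and 0 by limma-voom. An unadjusted p under 0.05 was reached by 779 transcripts with the 8 sham libraries only, 2764 without the filter and 1381 by limma-voom. DESeq2 gave 50. Without both sham libraries whose file numbers lie apart from the others it was 3, but 0 of the main 3 were among them. Without WT sham 1 and WT sham 4, an omission chosen after seeing the data, it was 10. On leaving out 1 of the 16 libraries it ran from 0 to 4. With the replicate number as a block it was 0 over 16 libraries (1185 with an unadjusted p under 0.05) and 0 over the 8 sham libraries (626). Same-numbered libraries had correlated deviations of -0.0276, 0.023, -0.00609 and 0.0227 over all transcripts and -0.0339, 0.193, -0.186 and 0.074 at 10 CPM or more. Not every pair was above 0.1 on either, so the numbers were not taken as pairs.

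After IR, ENSMUST00000190336.6 had log2 fold changes of -0.0164 with the replicate block and -0.141 by limma-voom, and from -0.486 to 0.316 on leaving out 1 library. Its difference between surgeries was -6.86 with the replicate block (adjusted p = 0.0733 by edgeR) and -4.9 by limma-voom (adjusted p = 0.068), and from -7.3 to -6.49 on leaving out 1 library. For ENSMUST00000107389.7 that difference was -0.0988 without both libraries of separate file numbers, -0.0931 without WT sham 1 and WT sham 4, and 0.064 to 0.979 on leaving out 1 library. KO sham minus WT sham was 17.5 for transcripts of at least 5 TPM (-238 at 1 TPM, and -438.5 to 94.2 on leaving out 1 library) and 0.35 points for the share of the 10 most abundant (-0.64 points for 100). The number of transcripts of at least 10 CPM with an interval within 2-fold ran from 5957 to 6138 over 25 alternatives. The sham medians of the transcripts called after IR ran from 0.0186 to 0.0804 (higher) and 0.0263 to 0.0941 (lower) over 26 alternatives.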
